A study of Homo sapiens with 4 samples.

Results

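To examine how genes of the GIST and interstitial cell of Cajal lineage behaved after transfection of a miR-335 mimic, all array probes of 10 genes were described: KIT, PDGFRA, KITLG, ETV1, HAND1, FOXF1, ANO1, PRKCQ, CD34 and GPR20. The genes were chosen by name for their place in this lineage, but with earlier results of these data known. Every probe that was not a control and carried one of these gene names was kept. This gave 10 of 36337 gene names and 17 of 50599 probes. The cells were GIST-T1, an established human line from a gastrointestinal stromal tumor that, as background, carries an activating KIT mutation; it is 1 line, and no other line or normal Cajal cell sample was analysed here. The mimic group (miR-335 mimic, 2 arrays) and the control group (control miRNA, a mirVana negative control, 2 arrays) each received 100 pmol of oligonucleotide by electroporation. Cells were harvested after 48 h, and 100 ng of their RNA was labeled for 1-color hybridization. No label says that the 2 arrays of a group came from separate cultures, so the p-values below measure the spread between these arrays, which may be technical. A last line in the description of both mimic samples names miR-34a, whereas their titles, transfection labels and the opening line of that description name miR-335, and the latter was used here.

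As background, interstitial cells of Cajal are the pacemaker cells of the gut wall, and GIST shares with them the expression of KIT and of other lineage genes. Cajal cells depend on KIT, a receptor tyrosine kinase that is activated by its ligand, KITLG (stem cell factor). In GIST, KIT or the related receptor PDGFRA is usually mutated and signals without ligand, and MAP kinase activity downstream of KIT stabilizes ETV1, an ETS transcription factor that drives lineage genes. A miRNA acts by pairing of its seed, bases 2 to 8 from its 5′ end, with sites in messenger RNA.

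The mature sequences encoded by the miR-335 hairpin are shown because they define which sites to look for in the transcripts below. They are taken from RefSeq (GRCh38.p14, chromosome 7, plus strand, 130496126 to 130496148 for the 5p arm and 130496162 to 130496183 for the 3p arm), written 5′ to 3′ with the seed in capitals. The labels do not say which arm the mimic represents.
hsa-miR-335-5p: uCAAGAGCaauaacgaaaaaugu
hsa-miR-335-3p: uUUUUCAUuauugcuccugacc

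The sense letters GCTCTTG, which pair with the 5p seed, were present in 0 of the 17 probe sequences and in 0.437% of all 50599 probes. The letters ATGAAAA, which pair with the 3p seed, were also present in 0 of the 17, against 1.22% of all probes. The shorter match to bases 2 to 7 was present in 0 of the 17 for the 5p arm (CTCTTG, 1.92% of all probes). For the 3p arm (TGAAAA) it was present in 1 of the 17, the GPR20 probe, against 4.52% of all probes. Each probe covers 60 bases of a transcript, so nothing is said here of sites elsewhere in these genes.

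All 10 genes were measured in these cells. All 17 probes were well above background on all 4 arrays, whereas 40.3% to 41.9% of all probes on an array were. Markers of other cell types were examined, mast cells and melanocytes first because they also express KIT. Of 6 mast cell markers on the array, 0 were well above background on both control arrays, and of 7 melanocyte markers MITF and PMEL were, with TYR, MLANA, DCT, TYRP1 and SOX10 not. Of 8 smooth muscle markers, ACTG2, DES, SMTN and SYNM were well above background and MYH11, CNN1, LMOD1 and MYOCD were not. UCHL1 and RET (of 7 neuronal and glial markers) and KRT8, KRT18 and EPCAM (of 7 epithelial markers) were also detected on both control arrays. No marker gene of these lists passed the test between groups (limma). The summed signal of a list, on the log2 scale and minus the array's 75th percentile, overlapped between groups for smooth muscle (4.18 to 4.65 in the control, 4.56 to 4.57 with the mimic), neuronal and glial (2.33 to 2.38 against 2.37 to 2.40) and epithelial markers (6.68 to 6.71 against 6.70 to 6.72). For melanocyte markers it was lower with the mimic and did not overlap (2.32 to 2.39 against 2.13 to 2.20). Of all tested probes, 32.5% were also lower without overlap. The sums take 1 probe a gene, and MITF was the brightest gene of this list. Its probe used had a difference of -0.16, whereas its other tested probes had -0.30 and 0.34. The melanocyte sum therefore rests on the choice of probe. No sum is read for mast cell markers, as none was above background. Their part in the results below was not tested.

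The comparison between groups asked which lineage genes differed with the mimic. Values are normalized signals, that is, log2 processed intensity minus the 75th percentile of the array (178.8 to 189.7 intensity units), and differences are mimic minus control on that log2 scale. One of the 10 genes, HAND1, fell in limma (1 of 17 probes, adjusted p under 0.05 over all 20328 tested probes, where 2.62% of probes were called, 1.15% as lower and 1.47% as higher). The other 16 probes did not pass (limma adjusted p 0.0512 to 0.897). In bulk RNA, fewer cells of a kind and less RNA per cell cannot be told apart.

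Most member probes nevertheless had lower values with the mimic. The difference was negative for 15 of 17 probes, against 53.8% of all tested probes, and the median over the 17 was -0.09, against -0.01 over all. Both mimic arrays lay below both control arrays for 12 probes (32.5% of all tested probes did so) and above them for 1 (27.1%). Taking for each gene its brightest probe, all 10 genes had a negative difference, between -0.92 and -0.07. Probes of 1 gene share their transcript, and most of these differences were small beside their intervals. The genes were also chosen with earlier results of these data known, so these counts are a description only.

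**Figure D1:**
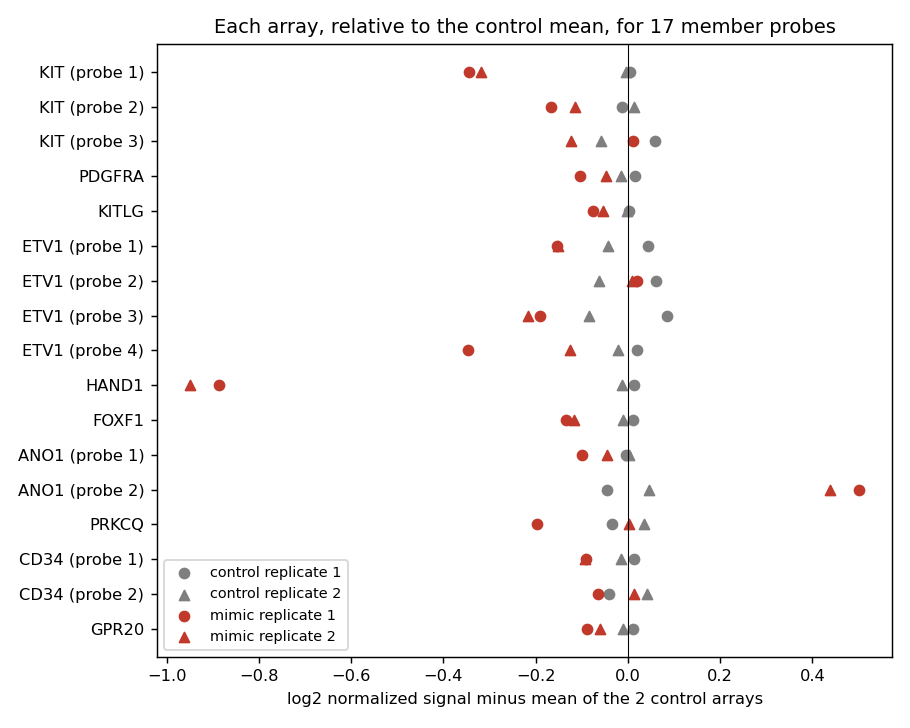
Normalized log2 signal of each array minus the mean of the 2 control arrays (x axis) for the 17 probes (y axis; probes of 1 gene are numbered from the brightest). Gray marks are control arrays and red marks mimic arrays; HAND1 stands farthest to the left, near -0.92, and ANO1 probe 2 farthest to the right, near 0.47.

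**Figure D2:**
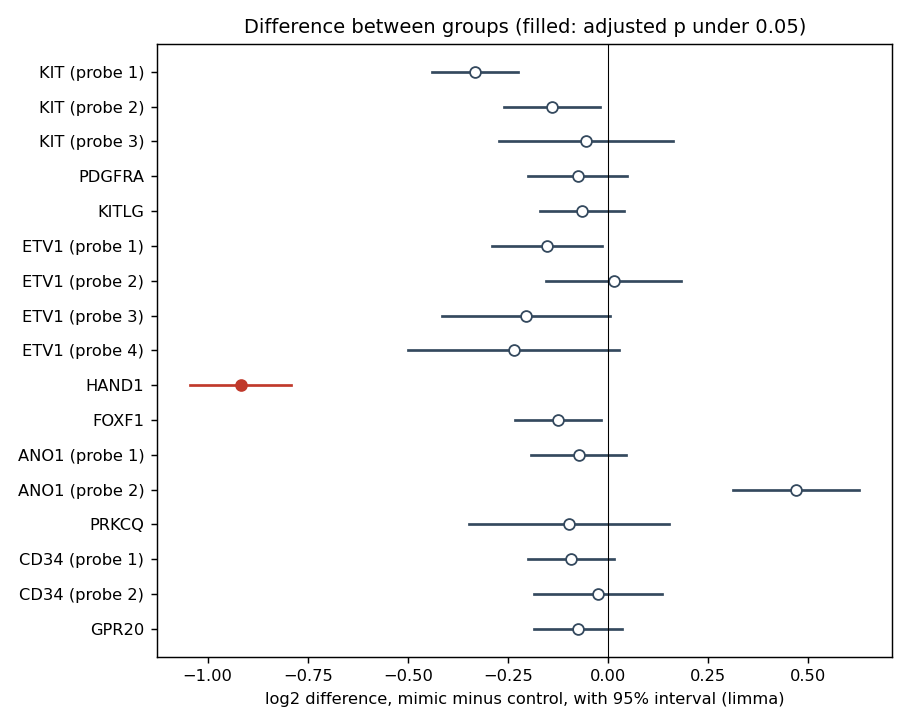
Difference between the group means (mimic minus control, log2 scale, points) with the 95% interval from limma (bars) for the same 17 probes. Only HAND1 is filled, as the only probe with an adjusted p under 0.05.

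The transcription factors were described first. HAND1, a basic helix-loop-helix factor of the developing heart and gut, had a processed signal of 1591 and 1589 intensity units on the control arrays and of 905 and 836.4 on the mimic arrays. Its normalized values were 3.15 and 3.13 in the control and 2.25 and 2.19 with the mimic, so the groups were far apart and the arrays within a group close together. The probe (A_23_P58770; chromosome 5, 153854793 to 153854852, minus strand, hg19) fell by 0.92 ± 0.04 (SE; 95% interval -1.04 to -0.79), that is, by 1.89-fold, with a limma adjusted p of 0.0314. This was also the only one of the 17 probes past 1.5-fold (1.47% of all tested probes were over 1.5-fold lower and 2.43% over 1.5-fold higher). It is the only probe for the gene. With any 1 array left out the difference was between -0.95 and -0.89 and did not pass (limma adjusted p 0.134 to 0.189), nor did it with the replicate number as a block (0.125). In each of those fits 0 of all 20328 probes were called lower, so the lost call is not particular to HAND1.

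ETV1 was represented by 4 probes along 1 transcript (NM_004956, chromosome 7, minus strand, hg19). On the brightest (A_33_P3357949, 13934085 to 13934144), the processed signal was 2856 and 2735 intensity units in the control and 2644 and 2555 with the mimic, and the groups did not overlap. That gave a difference of -0.15 ± 0.05 (SE; 95% interval -0.29 to -0.01), which did not pass (limma adjusted p 0.174). The other probes in the 3′ direction had differences of -0.20 (A_33_P3401156) and -0.24 (A_32_P78491), also without passing (limma adjusted p 0.204 and 0.228), and on both of these the groups did not overlap. The ratio of the brightest probe to each of these differed by 0.05 and 0.08 between groups, and in both ratios the groups overlapped.

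The remaining ETV1 probe (A_33_P3357954, 13935632 to 13935691), the one farthest toward the 5′ end, had values of 1.82 and 1.70 in the control and 1.78 and 1.77 with the mimic. Its groups overlapped, and its difference was 0.01 (95% interval -0.15 to 0.18), or -0.05 without control replicate 2. Within each array, the brightest probe exceeded this one by 2.17 and 2.21 in the control and by 2.02 and 2.03 with the mimic, a difference of -0.17 between the groups in this ratio, without overlap. How often such ratios separate the groups over all genes was not computed. The middle 30 bases of this probe are given to show what it reads (chr7:13935647-13935676, hg19, minus strand), and no part is in capitals because no motif is marked.
ETV1 A_33_P3357954: gatccagaagcccttttctccatggccttt

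FOXF1, a forkhead factor of the gut mesenchyme, was printed on 10 spots of each array. The median processed signal over spots was 9740 and 9766 intensity units on the control arrays and 9471 and 9152 on the mimic arrays. The spots of the groups overlapped, from 9482 to 10308 in the control and from 8861 to 9935 with the mimic. The normalized values, 5.77 and 5.75 against 5.63 and 5.65, did not. The difference was -0.12 ± 0.04 (SE; 95% interval -0.23 to -0.02), with a limma adjusted p of 0.163.

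Among the receptors, KIT had 3 probes with differences of unequal size. The brightest (A_23_P110253; chromosome 4, 55606511 to 55606570, plus strand, hg19) starts at position 4805 of NM_000222, near the 3′ end, and had 10 spots, of which 9 were usable on each array. Its median processed signal was 32999 and 32325 intensity units on the control arrays and 27094 and 26210 on the mimic arrays. Every usable mimic spot (23785 to 28710) was dimmer than every usable control spot (28920 to 34945), before normalization between arrays. The SD between spots of an array was 0.05 to 0.09 on the log2 scale. Spots of an array are copies of the same probe, so they add no replicates to the arrays of a group. The normalized values were 7.49 and 7.48 in the control and 7.14 and 7.17 with the mimic. Its difference of -0.33 (95% interval -0.44 to -0.22) is a change of -20.5%, and it lay just outside the threshold (limma adjusted p 0.0512).

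**Figure D3:**
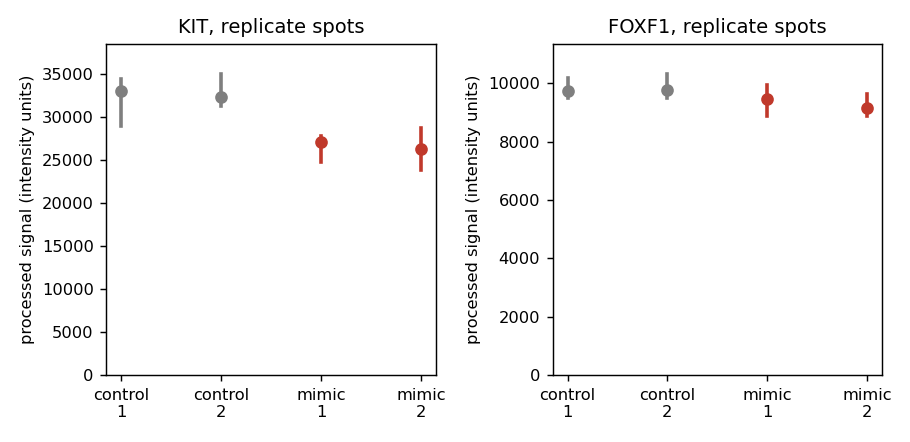
Processed signal in intensity units (y axis, from 0) of the replicate spots of the brightest KIT probe and of the FOXF1 probe on each array. Points are medians over usable spots and bars run from the lowest to the highest spot. The KIT ranges of the groups do not overlap, whereas those of FOXF1 do. Spots of an array are copies of the same probe, not replicates of a group.

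The second KIT probe (A_33_P3303245; 55569965 to 55570024) starts at position 918 of the variant NM_001093772. It read 1893 and 1959 intensity units in the control and 1807 and 1804 with the mimic, and the groups did not overlap. The difference of -0.14 (95% interval -0.26 to -0.02) did not pass (limma adjusted p 0.161). Within an array the brightest probe exceeded it by 4.09 and 4.05 in the control and by 3.89 and 3.87 with the mimic, a difference of -0.19 in this ratio, in which the groups did not overlap.

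The third KIT probe (A_33_P3407034; 55593626 to 55593685) was the dimmest, at 128.7 and 120.7 intensity units in the control and 132.2 and 116.1 with the mimic. Its normalized values, -0.47 and -0.59 in the control and -0.52 and -0.66 with the mimic, overlapped, and its difference was -0.06 (95% interval -0.27 to 0.16). The ratio of the brightest probe to this one differed by -0.28 between groups, without overlap. As background, the dimmest probe lies in the exon for the juxtamembrane segment of the receptor, where GIST mutations cluster. The authors place the activating KIT mutation of GIST-T1 in this same exon. Whether the KIT alleles of this line match the probe's bases was not tested. The middle 30 bases of this and the preceding probe are given because they show which coding stretches these values come from (chr4:55569980-55570009 and chr4:55593641-55593670, hg19, plus strand).
KIT A_33_P3303245: aatgattctggagtgttcatgtgttatgcc
KIT A_33_P3407034: ttacatagacccaacacaacttccttatga

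PDGFRA, the receptor mutated in many GISTs that lack a KIT mutation, had 1 probe (A_23_P300033; chromosome 4, 55163989 to 55164048, plus strand, hg19). Its signal was 11434 and 11366 intensity units in the control and 11165 and 11193 with the mimic. The normalized values did not overlap, with 5.97 the lower of the control and 5.94 the higher of the mimic arrays, and the interval of the difference, -0.20 to 0.05, includes 0 (limma adjusted p 0.354). KITLG, the ligand of KIT, was measured in the same cells, at 2889 and 2929 intensity units in the control and 2904 and 2843 with the mimic, with an interval of -0.17 to 0.04 (limma adjusted p 0.35). For both genes a change larger than the stated bounds would lie outside the interval on this scaling. Smaller changes could not be told from 0 with 2 arrays a group. The bounds do not cover the choice of scaling. Scaled to external spike-in RNAs, PDGFRA was at -0.26 and KITLG at -0.25. Both then passed as lower (limma adjusted p 0.0224 and 0.0219), as did 44.6% of all tested probes.

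ANO1, the calcium-activated chloride channel also known as DOG1 and used to diagnose GIST, had 2 probes with differences of opposite sign. The brighter one (A_24_P87036; chromosome 11, 70035233 to 70035292, plus strand, hg19; NM_018043) had values of 5.05 and 5.06 in the control and 4.95 and 5.01 with the mimic, a difference of -0.07 (95% interval -0.19 to 0.05; limma adjusted p 0.349). The dimmer one (A_24_P110831; 70009621 to 70009680), which the array file assigns to the transcript ENST00000316296, read 192.4 and 208.1 intensity units in the control and 298 and 275 with the mimic. Its normalized values were 0.11 and 0.20 in the control and 0.65 and 0.59 with the mimic.

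On this ANO1 probe the difference was 0.47 ± 0.05 (SE; 95% interval 0.31 to 0.63), a 1.38-fold higher value that did not pass the threshold (limma adjusted p 0.0533). It was the only member probe with both mimic arrays above both control arrays. Within an array the brighter probe exceeded the dimmer by 4.94 and 4.86 in the control and by 4.30 and 4.42 with the mimic. The ratio of the probes thus differed by -0.54 between groups, and the mean of both probes had a difference of 0.20 (limma adjusted p 0.0926), opposite in sign to the brighter probe. Which ANO1 transcripts each probe detects was not analysed further here.

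The other surface and signaling markers had small differences. CD34, a sialomucin of Cajal cell precursors, blood stem cells and endothelium, had values of 2.94 and 2.91 in the control and 2.83 and 2.83 with the mimic on its brighter probe (A_23_P23829), a difference of -0.09 (95% interval -0.20 to 0.02; limma adjusted p 0.24). Its other probe (A_33_P3225046; accession NM_001025109) had values of 1.95 and 2.04 in the control and 1.93 and 2.01 with the mimic. Those groups overlapped, and the interval was -0.19 to 0.13. The ratio of the brighter to the other CD34 probe differed by -0.07, with overlap of the groups. GPR20, an orphan G protein-coupled receptor that is abundant in GIST, read 40273 and 40311 intensity units in the control and 39884 and 39191 with the mimic. Its interval was -0.18 to 0.03 (limma adjusted p 0.313), and the spots were not saturated. PRKCQ, protein kinase C theta, had values of 1.15 and 1.22 in the control and 0.99 and 1.19 with the mimic, which overlapped. Its interval was -0.35 to 0.15 (limma adjusted p 0.529), wider than that of GPR20.

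Lists of related genes, written from general knowledge but with earlier results of these data known, were then compared with the members. Each gene had 1 probe, the brightest tested. Over all 15454 gene names tested the median difference was -0.02, 55.3% were lower and 44.7% higher, 1.34% were called lower and 1.42% higher, and 25.9% had an unadjusted p below 0.05; the counts below are to be read against these shares. Of 27 adaptors and effectors of KIT, 26 were tested, and 0 passed in limma (5 at an unadjusted p below 0.05, of which 4 were lower). Their median was -0.04, and 17 (65.4%) were lower. The share with an unadjusted p below 0.05, 19.2%, was under that of all genes. The largest differences were those of STAT5A, a transcription factor activated by cytokine and KIT signaling (-0.35, limma adjusted p 0.248), of LYN, a SRC family kinase (-0.26, limma adjusted p 0.0705), and of SOS2, a RAS exchange factor (-0.20, limma adjusted p 0.11).

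Of the other class III receptors and the ligands of this class, 3 of 10 were tested, since most were not well above background, and 0 passed in limma (1 at an unadjusted p below 0.05). The difference was -0.22 for FLT3LG, -0.18 for PDGFRB and 0.12 for CSF1 (limma adjusted p 0.119 to 0.543). The genes for PDGFA, PDGFB, PDGFC and PDGFD, the ligands of the PDGF receptors, were among those not tested.

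A list of ETV1 relatives, genes for ETV1 degradation and MAP kinase output genes held 14 names, of which RFWD2 and COP1 are the same gene. The 13 on the array were all tested, 9 (69.2%) lower and 4 higher, with a median of -0.10. None passed in limma (4 at an unadjusted p below 0.05, all lower). DUSP6, the ERK phosphatase whose transcript follows ERK activity, had values of 7.35 and 7.32 in the control and 7.02 and 7.06 with the mimic, a difference of -0.29 ± 0.04 (SE; limma adjusted p 0.0672). SPRY4 (-0.15, limma adjusted p 0.156) and ATXN1L (-0.15, limma adjusted p 0.171) followed. The dimmer tested probe of SPRY4 had a difference of 0.19 (limma adjusted p 0.407), opposite in sign to the brighter one. The relatives ETV4 and ETV5 had differences of 0.09 and -0.12, with limma adjusted p of 0.38 and 0.223.

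Of 14 transcription factors of the gut mesenchyme all were tested, 9 (64.3%) with a negative and 5 with a positive difference, with a median of -0.07. None passed in limma (7 at an unadjusted p below 0.05, of which 4 were lower). HAND2, the paralog of HAND1, had values of 2.26 and 2.24 in the control and 2.43 and 2.50 with the mimic, a difference of 0.21 ± 0.05 (SE; limma adjusted p 0.109), in the opposite direction to HAND1. OSR2 (-0.32), GATA4 (0.31) and GATA6 (-0.30) had the largest differences (limma adjusted p 0.0798 to 0.23). The 4 tested probes of GATA4 ran from -0.26 to 0.31. The probe used was the brightest over all 4 arrays, whereas on the control arrays alone the probe at -0.26 was brighter; with probes taken by the control arrays the list had 10 negative and 4 positive differences and a median of -0.08. The direction of GATA4 therefore rests on the choice of probe. BARX1, a homeobox factor of the stomach mesenchyme, had a difference of 0.05 (limma adjusted p 0.634).

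Among 14 further genes known from GIST or Cajal cells, 12 were tested and 1 fell in limma, BCL2, the apoptosis inhibitor (8.33%, against 1.34% of all genes). Its brighter probe had values of 1.23 and 1.29 in the control and 0.77 and 0.84 with the mimic, and fell by 0.45 ± 0.05 (SE; limma adjusted p 0.0487). Its other tested probe also fell by 0.45 (limma adjusted p 0.0428). As no probe of the series was called lower with any 1 array left out, neither BCL2 probe was then. Of the 12 genes 9 had a higher value with the mimic, against 44.7% of all, and the list median was 0.04. THBS4 (0.16), PROM1 (0.12) and CA2 (-0.12) had the largest of the other differences and did not pass (limma adjusted p 0.133 to 0.167). No test of any list as a whole was run.

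**Figure D4:**
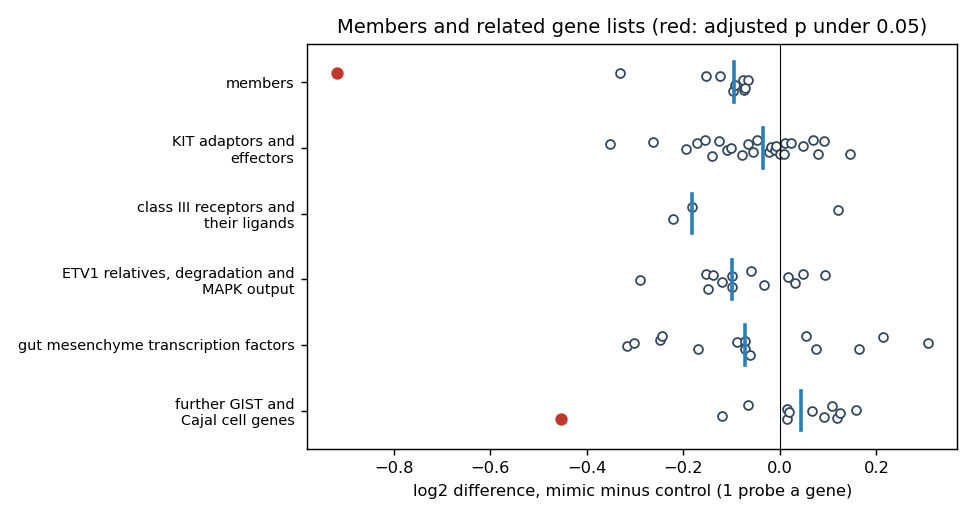
Difference between groups (mimic minus control, log2 scale, x axis) for 1 probe per gene in the 10 members and 5 related lists (y axis). Circles are genes, red ones have an adjusted p under 0.05, and blue bars are list medians; HAND1 and BCL2 are the red points.

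The genes whose pattern over the 4 arrays was closest to that of the brightest KIT probe were GFOD1, FOXK1 and ARSB, with Euclidean distances of 0.0049, 0.0053 and 0.012 between values centered on their mean (log2 units, 15037 candidate probes with a protein-coding accession). Over only 4 arrays so close a match carries little information. The difference was -0.34 for GFOD1, -0.33 for FOXK1 and -0.32 for ARSB, and only GFOD1 passed in limma (adjusted p 0.0492).

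The size of the small differences depended on the scaling. After scaling to the 75th percentile, external spike-in RNAs read 0.19 higher (median of 7 probes, log2) on the mimic arrays, and scaling to them moved the median of all 20328 probes to -0.20. On that scale 13 member probes passed as lower and 1 as higher in limma, where 44.6% of all tested probes passed as lower and 2.54% as higher. HAND1 was then at -1.10, the brightest KIT probe at -0.52 and the dimmer ANO1 probe at 0.28. The median over the 17 probes was -0.28 there, to be read against the shift of -0.20 of all probes. Over all probes, 299 of 532 calls were higher on the main scale and 516 of 9592 on the spike-in scale. With a variance trend over intensity in limma, 5 member probes passed as lower and 1 as higher, where 8.54% and 6.63% of all tested probes did. When a probe had to be detected on each of the 4 arrays to be tested, HAND1 and the brightest KIT probe passed as lower and the dimmer ANO1 probe as higher, against 1.49% and 1.55% of all.

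**Figure D5:**
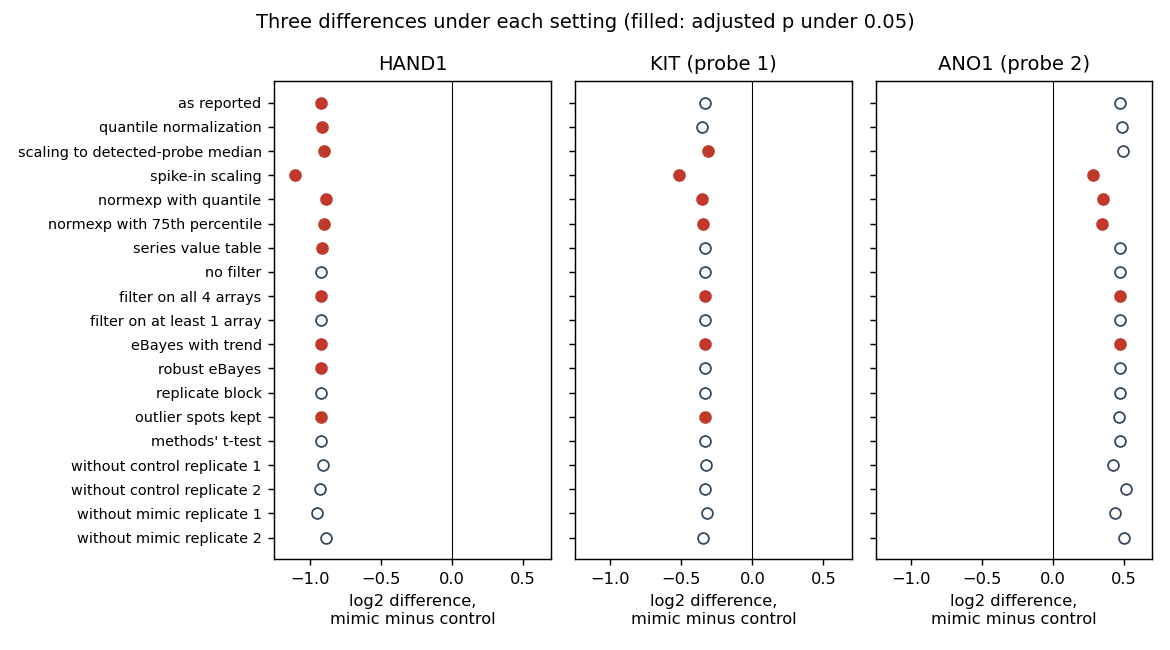
Difference between groups (log2 scale, x axes) for HAND1, the brightest KIT probe and the dimmer ANO1 probe under the processing settings (y axis). The mean over the KIT probes is not drawn. Filled red points have an adjusted p under 0.05; all points keep their side of 0, and those with any 1 array left out are open.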

How the data were processed

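The authors deposited scanner files from Feature Extraction 10.7.3.1 (per the file headers), whose processed intensity is background-subtracted and detrended within an array but not normalized between arrays; a deposited series table holds the same values, rounded, and 0 of its columns had no sample. All 4 arrays lay on 1 slide with 1 scan time, the control at positions 1 and 2 and the mimic at 3 and 4, so position and group cannot be told apart.

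Spots that were flagged as outliers were left out, spots of a probe were averaged as log2, and the 75th percentile of each array was subtracted. Detection (well above background) followed the scanner flag, needing a share of 0.5 or more of the usable spots. Probes well above background on both arrays of a group were tested (20328) with limma 3.58.1 in R 4.3.3 (lmFit, eBayes, no covariates) and Benjamini-Hochberg adjustment at 0.05 over all of them. An exact permutation test of 2 against 2 arrays cannot go below a p of 0.333. On simulated data for this comparison (20360 probes) limma recovered 41.8% of 67 1.5-fold, 71.6% of 67 2-fold and 81.8% of 66 4-fold changes. It made 5 false calls. The simulation changed fewer probes than the 532 called in the data, so its rates need not hold here. The number of arrays limits the precision.

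The members and lists were chosen with earlier results of these data known. Genes were named by rule: all members, the called genes and the 3 largest differences of each list, detected markers (blood and endothelial markers are not reported here), and the 3 genes closest to KIT; HAND2, ETV4, ETV5 and BARX1 were added after their values had been seen. All 10 member names matched RefSeq symbols (GRCh38.p14). Coordinates are those of the array files (hg19). Taking each gene's probe by the control arrays and scaling the marker sums were added after seeing the data. Other alternatives were scalings, background correction, filters, variance models and left-out arrays. Figures were drawn with matplotlib 3.10.9.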

Additional observations from a re-analysis of the deposited data

How the results depend on the processing

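HAND1 stayed negative in all 18 alternatives (-1.10 to -0.88) and was called in 10; at -0.92 it missed the threshold in limma with no filter (adjusted p 0.41), with the filter on at least 1 array (0.0957) and with the replicate block (0.125), and in the methods' t-test (0.117). With single arrays left out, the values ran from -0.95 to -0.89. The brightest KIT probe passed with scaling to detected probes (-0.31), spike-in scaling (-0.52), normexp with quantile (-0.36) or with the 75th percentile (-0.35), the filter on all 4 arrays (-0.33), an intensity trend (-0.33) and outlier spots kept (-0.34); with single arrays left out it was -0.35 to -0.32, and it stayed negative in all 19 alternatives. Of these 19 alternatives it was called in 7. It was smallest, -0.18 (limma adjusted p 0.102), as the mean over the KIT probes, and missed the threshold with the block (0.144) and with single arrays left out. Further misses in limma came with quantile normalization (adjusted p 0.0644), robust variance (0.0549) and the series table values (0.0521). So did no filter (0.531) and the filter on at least 1 array (0.105). The methods' t-test gave an adjusted p of 0.123.

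The number of member probes called, 1, became 2 with scaling to detected probes or outlier spots kept, 3 under both normexp settings and the filter on all 4 arrays (HAND1, KIT and the dimmer ANO1 probe), 6 with an intensity trend (5 lower, 1 higher) and 14 under spike-in scaling. It was 8 by the methods' t-test unadjusted, and 0 after adjustment, with no filter, with the filter on at least 1 array and with the replicate block. Without 1 array in turn it was 0 to 0. Of all 20328 tested probes, scaling to detected probes called 212 as lower and 327 as higher. With outlier spots kept, 242 of the 20328 were called lower and 292 higher. The number over all probes, 532 of 20328, became 9592 under spike-in scaling, 1423 and 1550 under normexp and 3083 with a trend. That number was 4115 by the unadjusted t-test and 792 by fold alone. It was 0 after adjustment of the t-test, with no filter (3627 unadjusted), with the filter on at least 1 array (4696) and with the block (4400), and 0 to 8 without 1 array in turn. The causes were not tested.

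Signs turned where values were near 0. With single arrays left out, the dimmest KIT probe ran from -0.12 to 0.012, the 5′ ETV1 probe from -0.048 to 0.076, PRKCQ from -0.20 to 0.0027 and the dimmer CD34 probe from -0.067 to 0.016. The 5′ ETV1 probe was at -0.17 with spike-in scaling. For ANO1, the mean over both probes was 0.20, which includes the dimmer probe at 0.47. Apart from that mean, the brighter ANO1 probe stayed negative in the other 18 of 19 alternatives. The sample titles number the arrays consecutively over both groups, so they do not pair a control array with a mimic array. The fits with a replicate block therefore rest on a pairing that the titles do not give. For the replicate numbers used here, the correlation of deviations was 0.03. A slide or scan block could not be fitted, as all arrays share both.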
